A study of Arabidopsis thaliana with 12 samples.

Results

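Transcripts of 4 nuclear genes of Arabidopsis thaliana whose products build the photosynthetic membrane were followed in a mutant of photosystem I. These were AT1G22700 (PYG7), ATAB2 (AT3G08010), CCB3 (AT5G36120) and SECE1 (AT4G14870), chosen because each had a probe that the platform annotation lists to that gene alone. They are 4 of the 691 genes with a probe of their own, with 1 such probe each and 0 further probes that they share with other genes. Total RNA was measured in 6 samples of the psae2 mutant, ecotype Columbia 0, and in 6 samples of the wild type (WT) of the same ecotype. The psae2 mutant lacks the photosystem I protein PSI-E2. The labels name no other allele or treatment, and give neither the tissue, the plants' age nor the growth conditions. They also do not say how the mutation was made or how many plants went into a sample.

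Photosystem I, photosystem II and the cytochrome b6f complex sit in the thylakoid membrane of the chloroplast and carry electrons from water to ferredoxin. Their subunits come from 2 genomes, that of the plastid and that of the nucleus, and are put together with their pigments, hemes and iron-sulfur clusters by factors that are not part of the finished complex. PYG7 is a thylakoid protein needed for photosystem I to accumulate, and ATAB2 is an RNA-binding protein that promotes translation of plastid mRNAs for photosystem reaction centre proteins. CCB3 takes part in attaching a heme to cytochrome b6, and SECE1 is a subunit of the Sec translocase, which moves proteins into and across the thylakoid membrane.

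The deposited values are intensities on a linear scale from 0 to 100, and they summed to between 2972 and 3610 per sample over 3439 probes. Of the 12 samples, numbers 1 and 2, 3 and 4, and 5 and 6 of a genotype had correlated deviations from the group mean (0.24 to 0.71, against -0.68 to -0.12 for the 24 other combinations within a genotype, where deviations sum to 0 and are pushed below it), so that a genotype may hold 3 independent values and not 6. The genotype test of each of the 4 genes is therefore given over 12 samples and over the means of these pairs of numbers. Other tests are over 12 samples unless stated otherwise. P-values measure only the spread between these samples, which may be technical. PSAE2, which the mutation targets, and PSAE1, its paralog, had 0 probes each, so the labels could not be checked against the targeted transcript. Of the marker genes looked for, the antenna gene LHB1B2 of green tissue had a probe of its own, at 3.32 to 3.59 in psae2 and 3.41 to 3.87 in the WT (normalized log2 intensity; lower in psae2 at 6 of 6 numbers, log2 difference -0.18, limma adjusted p = 0.204). The 6 root and 5 flower and seed markers had 0 probes of their own.

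Over 12 samples AT1G22700 was higher in the mutant than in the WT, a call that was lost with pairs averaged, and the other 3 genes passed in neither fit. AT1G22700 was 1.58-fold higher in psae2 (log2 difference 0.66 ± 0.14, SE, over 12 samples), while the log2 differences of CCB3, ATAB2 and SECE1 were 0.10, 0.03 and -0.20. The median of the 4 was 0.07, beside 0.01 over all 3009 entries tested. In limma over 12 samples 1 of the 4 passed the threshold, an adjusted p under 0.05, where 22.3% of all entries did, 11.9% as higher and 10.4% as lower in psae2. With pairs of numbers averaged, 0 of the 4 passed in limma, where 2.63% of all entries did. The unadjusted limma p of AT1G22700 was 0.00269 in that fit, and the share of all entries with an unadjusted p under 0.05 was not counted.

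**Figure D1:**
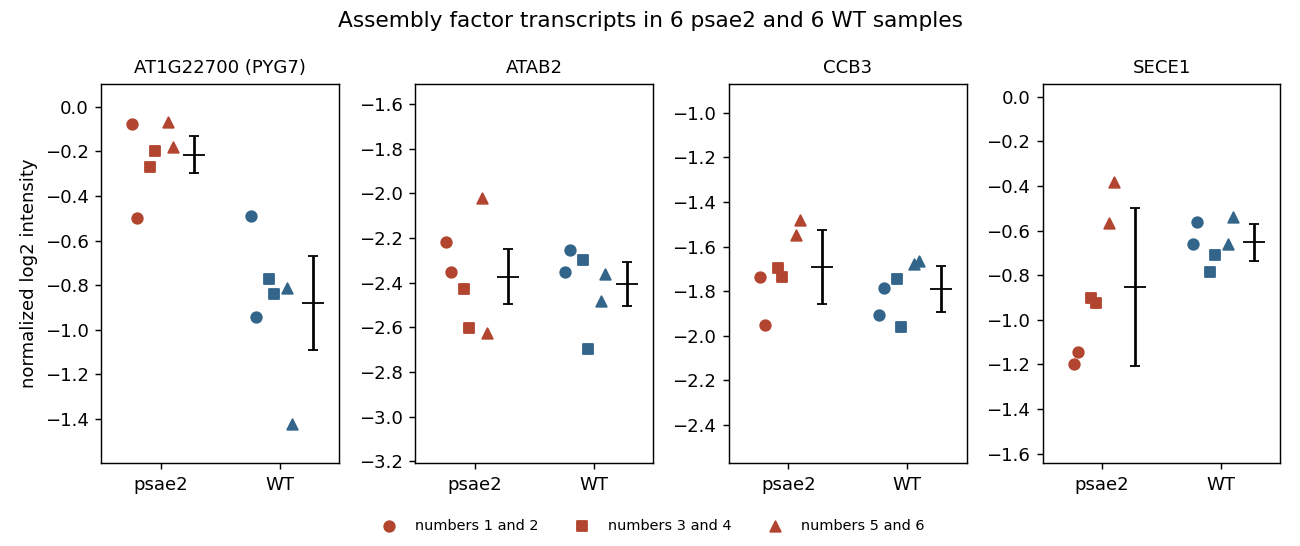
Normalized log2 intensity (vertical axis, each panel spanning the same range) of the 4 genes in psae2 (left) and WT (right) samples, with the marker shape giving the sample numbers and black bars the mean ± SD of the 3 pair means of a genotype. AT1G22700 is higher in psae2 with 1 near-tie between the genotypes. On this scale SECE1 is spread wider in psae2 than in the WT (SD of 6 samples 0.32 and 0.09). As deposited its log2 spread was similar in both (0.21 and 0.18).

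AT1G22700 was bright enough to be measured in every sample, at 4.72 to 14.1 times the floor, a per-array lower limit set at the 5th percentile of its values above 0. Its deposited intensity was 0.820 at the lowest, 0.872 at the median and 1.09 at the highest in psae2, against 0.313, 0.537 and 0.778 in the WT. On that scale all 6 psae2 samples lay above all 6 WT samples, which was so for 12.9% of all entries. After quantile normalization the log2 levels were -0.50, -0.19 and -0.07 in psae2 and -1.42, -0.82 and -0.49 in the WT (lowest, median and highest). Here the genotypes met at 1 point, because psae2 sample 2 lay just under WT sample 1. On the normalized scale 0 of the 4 genes had all psae2 samples above all WT samples, against 6.55% of all entries. In samples of whole RNA, a difference in RNA per cell and one in the share of cells that express a gene cannot be told apart.

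The mean normalized log2 level of AT1G22700 was -0.22 ± 0.08 in psae2 and -0.88 ± 0.21 in the WT (SD over pair means, n = 3 each). Over 12 samples the adjusted p was 0.00483 in limma, with a 95% interval of the difference of 0.37 to 0.96. With pairs averaged the interval was 0.33 to 1.001 and the limma adjusted p 0.0743, so the call was lost. It was 0.169 in limma with a random block for each pair, a fit in which 6.02% of all entries and 0 of the 4 genes passed. The sign was shared by all numbers, with psae2 above WT at 6 of 6 numbers by 0.41 to 1.24. A log2 difference at least as high was found for 109 of the 3009 entries, 3.62%.

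The size of the AT1G22700 difference varied between the pairs of numbers. It was 0.43 at numbers 1 and 2, 0.57 at numbers 3 and 4, and 0.99 at numbers 5 and 6. The psae2 pair means were close together (-0.29, -0.23 and -0.13), and those of the WT were wider apart (-0.72, -0.81 and -1.12). WT sample 6, the lowest, stood 0.61 below WT sample 5, the widest gap between possible repeats of this gene, and without WT sample 6 the difference was 0.55 (limma adjusted p = 0.00367). With numbers 3 and 4 left out of both genotypes the call was lost (0.71, limma adjusted p = 0.0648). An interaction test of genotype with pair of numbers did not pass for AT1G22700 (limma adjusted p = 0.405).

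**Figure D2:**
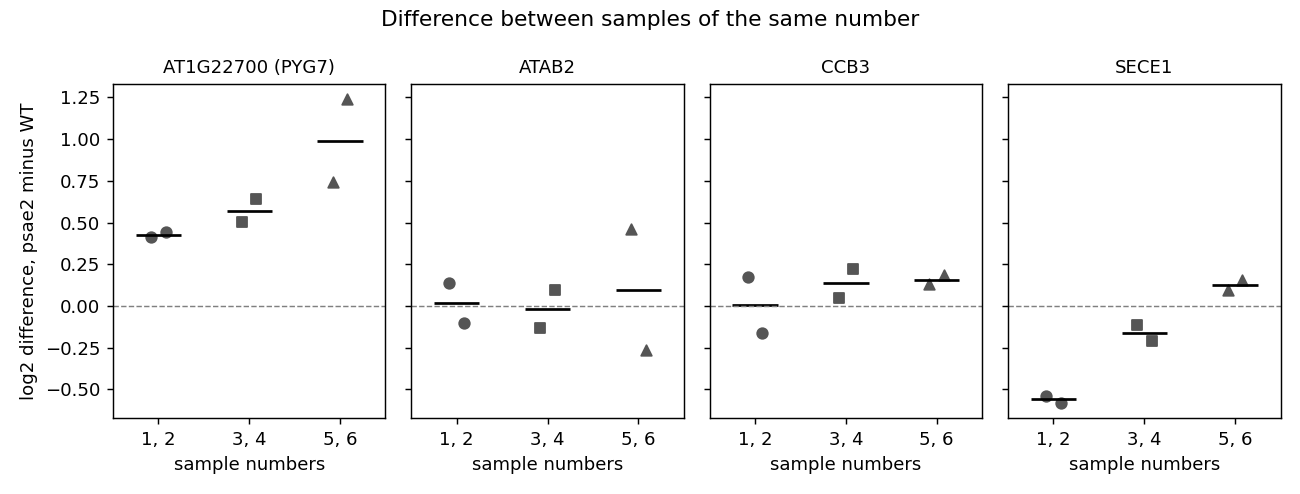
Log2 difference, psae2 minus WT, between samples of the same number (vertical axis) against the pair of sample numbers (horizontal axis) for the 4 genes, with a line at the mean of each pair. AT1G22700 stays above 0 at 6 of 6 numbers, whereas SECE1 lies between -0.58 and 0.16 and crosses 0.

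ATAB2 gave a signal close to the floor, at 2.02 to 3.39 times the floor in psae2 and 1.91 to 2.66 times in the WT. Its deposited intensity was 0.150, 0.212 and 0.267 in psae2 and 0.148, 0.179 and 0.215 in the WT (lowest, median and highest). The ranges overlapped over most of their width. Normalized log2 levels averaged -2.37 ± 0.12 in psae2 and -2.41 ± 0.10 in the WT (SD over pair means, n = 3 each). The log2 difference of 0.03 had a 95% interval of -0.22 to 0.28 over 12 samples and -0.26 to 0.32 with pairs averaged (limma adjusted p = 0.873 and 0.917). ATAB2 was higher in psae2 at 3 of 6 numbers, and its difference turned to -0.04 without psae2 sample 5 and to -0.03 without WT sample 4. As deposited, where the median entry was higher in psae2 by 0.17, it was 0.22 (95% interval -0.10 to 0.55, limma adjusted p = 0.298), higher in psae2 at 5 of 6 numbers. Possible repeats of ATAB2 differed by up to 0.61 in psae2 (samples 5 and 6) and 0.40 in the WT (samples 3 and 4), far more than the genotypes did.

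The SD of CCB3 over all 12 normalized log2 values, genotype differences included, was 0.15, against 0.19 for ATAB2, 0.25 for SECE1 and 0.42 for AT1G22700. As deposited, CCB3 intensity was 0.320, 0.326 and 0.370 in psae2 and 0.241, 0.270 and 0.299 in the WT (lowest, median and highest). On the deposited scale no psae2 sample was as low as the highest WT sample, which was so for 12.9% of all entries. Quantile normalization removed that separation. The normalized log2 levels ran from -1.95 to -1.48 in psae2 and from -1.96 to -1.66 in the WT, with means of -1.69 ± 0.17 and -1.79 ± 0.10 (SD over pair means, n = 3 each).

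Whether CCB3 passed depended on the scaling. Its log2 difference was 0.10 after quantile normalization (95% interval -0.09 to 0.29, limma adjusted p = 0.461, and 0.719 with pairs averaged). It was 0.10 with median-centred arrays and 0.19 with arrays centred on their 75th percentile (limma adjusted p = 0.133). As deposited it was 0.31 (95% interval 0.15 to 0.48, limma adjusted p = 0.00945), where 28.1% of all entries passed and 23.6% passed as higher in psae2. With samples taken as independent, the shift of the median entry on that scale, 0.17, lay within the interval of CCB3. It lay below that of AT1G22700 (0.80, 95% interval 0.43 to 1.17). With pairs averaged the shift was also below the AT1G22700 interval (0.31 to 1.29). With a random block for each pair it lay within that interval (0.08 to 1.51). Whether the shift accounts for the difference of either gene was not tested. With pairs averaged the deposited values gave CCB3 an adjusted p of 0.244 in limma. Between pairs of numbers its normalized difference was 0.00, 0.14 and 0.16, and the normalized levels of both genotypes were highest at numbers 5 and 6 (-1.51 in psae2 and -1.67 in the WT). As deposited they were highest at numbers 1 and 2 (-1.54 in psae2 and -1.81 in the WT).

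**Figure D3:**
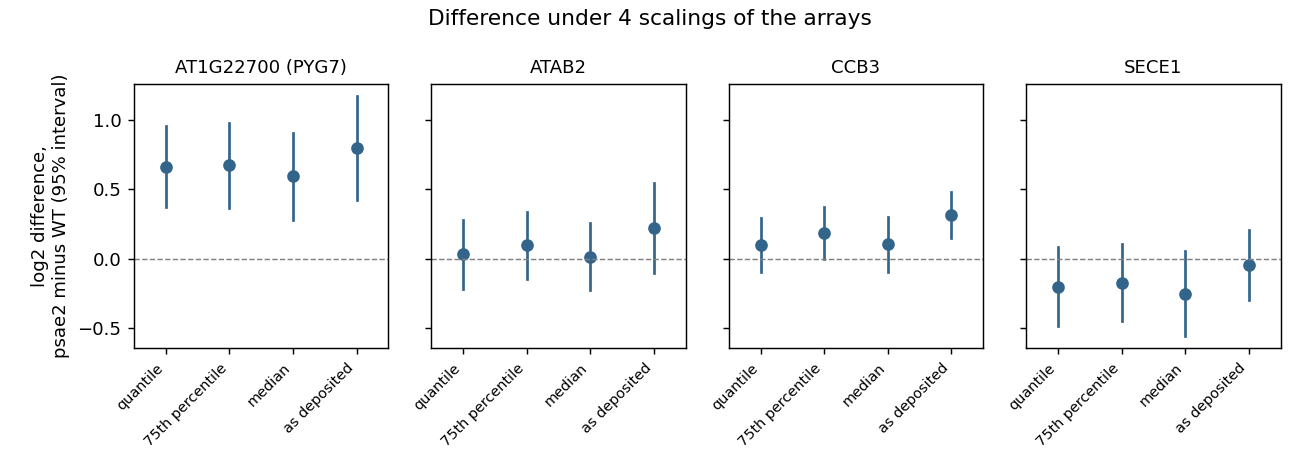
Log2 difference, psae2 minus WT, with its 95% interval over 12 samples (vertical axis) under 4 scalings of the arrays (horizontal axis). AT1G22700 lies above 0 under all 4, from 0.59 to 0.80. CCB3 is clear of 0 as deposited and barely above it with arrays centred on their 75th percentile (interval 0.0005 to 0.37).

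The observed SECE1 difference between the genotypes changed with the sample number. Deposited intensity was 0.525, 0.545 and 0.756 in psae2 and 0.540, 0.584 and 0.733 in the WT (lowest, median and highest), so the ranges coincided. After normalization the psae2 pair means were -1.17 at numbers 1 and 2, -0.91 at numbers 3 and 4 and -0.47 at numbers 5 and 6. The WT pair means were -0.61, -0.75 and -0.60 at the same numbers. Possible repeats agreed closely for SECE1, within 0.18 in psae2 and 0.12 in the WT. As deposited both genotypes changed between pairs of numbers. The log2 pair means there were -0.90, -0.88 and -0.51 in psae2 and -0.49, -0.84 and -0.83 in the WT.

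The normalized SECE1 difference was thus -0.56 at numbers 1 and 2, -0.16 at numbers 3 and 4, and 0.13 at numbers 5 and 6. Its mean of -0.20 had a 95% interval of -0.49 to 0.09 over 12 samples (limma adjusted p = 0.306; 0.614 with pairs averaged). The interaction of genotype with pair of numbers passed for SECE1 (limma adjusted p = 0.0131), as it did for 21.6% of all entries, and it did not pass for ATAB2 or CCB3 (0.948 and 0.664). This test takes samples of 1 pair as independent. If they are repeats, each genotype has 1 independent value per pair of numbers, and the interaction cannot be tested. As deposited, the SECE1 differences were -0.41, -0.04 and 0.32 at the same pairs of numbers, with a mean of -0.04 (24.3% of entries passed the interaction test on that scale). The sources used here do not say what the numbers stand for.

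The 4 genes did not follow 1 common profile over the 12 samples. After each profile was centred on its own mean, CCB3 and SECE1 were the most alike, with a root mean square difference of 0.21, and so were CCB3 and ATAB2 (0.21). AT1G22700 was farther from each of the others, at 0.39 from CCB3, 0.42 from ATAB2 and 0.53 from SECE1. These distances are in log2 units over 12 samples that share arrays' scaling, and are smaller for genes that vary less.

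Among 525 other genes with a probe of their own and a signal above the floor in all 12 samples, AT4G23080 had the profile most like that of AT1G22700. Its root mean square difference was 0.14, against 0.16 for AT3G45770 and 0.17 for AT5G19940. AT4G23080 had a log2 difference of 0.75 and passed over 12 samples and with pairs averaged (limma adjusted p = 0.000549 and 0.0405). AT3G45770 (0.75) and AT5G19940 (0.60) passed over 12 samples (limma adjusted p = 0.00211 and 0.00367) and not with pairs averaged (0.0811 and 0.077). Because AT1G22700 itself differs between the genotypes, a gene with a similar profile does so as well by construction.

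For ATAB2 the nearest profiles were those of AT3G57440, AT1G28150 and AT4G26770, at 0.10, 0.12 and 0.13. For CCB3 they were AT5G22340, AT1G79080 and AT4G03150, at 0.09 each. SECE1 was closest to AT1G30700, AT4G24750 and AT4G40080, at 0.09, 0.11 and 0.12. Their psae2 pair means were lowest at numbers 1 and 2, as those of SECE1 were, which follows from choosing genes by similar profile. None of the 4 genes was among the 3 nearest of another, and the 9 neighbours of these 3 genes, chosen to match profiles without a called difference, had limma adjusted p of 0.124 to 0.975.

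**Figure D4:**
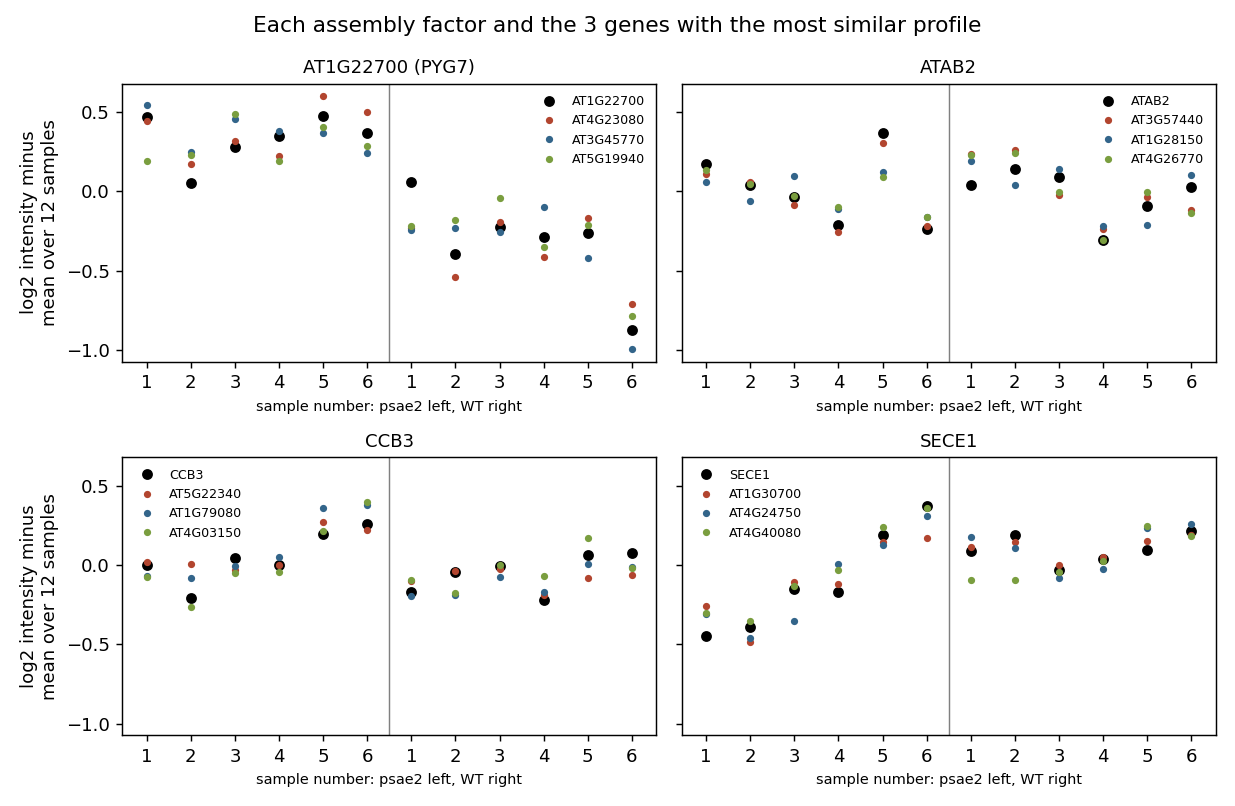
Log2 intensity minus the mean over 12 samples (vertical axis) for each of the 4 genes (black) and the 3 genes with the most similar profile (colours), by sample number (horizontal axis), with psae2 left of the line and WT right of it. WT sample 6 is lowest for AT1G22700 and its 3 neighbours, and psae2 samples 1 and 2 are low for SECE1 and its neighbours. Shared high and low samples follow from choosing neighbours by similar profile.

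Of 113 further loci in 8 lists of plastid factors (assembly of the 3 complexes, protein targeting, envelope import, chaperones and proteases, translation and RNA factors, and subunits of photosystem I and cytochrome b6f), 8 had a probe of their own and 7 were tested. Of these 7, 1 passed over 12 samples in limma, higher in psae2, 0 were lower, and their median log2 difference was 0.01; over all entries 22.3% passed, 11.9% as higher. The gene that passed was Cpn60beta4, a chaperonin subunit of the chloroplast. Its normalized log2 levels were -1.28, -0.74 and -0.49 in psae2 and -1.80, -1.47 and -1.27 in the WT (lowest, median and highest), and it was higher in psae2 at 6 of 6 numbers. The log2 difference of 0.64 ± 0.14 (SE) was about that of AT1G22700, with a limma adjusted p of 0.00595 over 12 samples, 0.163 with pairs averaged and 0.0493 with a random block for each pair. Its call over 12 samples was also lost without numbers 3 and 4 (0.67, limma adjusted p = 0.0628) or 5 and 6 (0.51, 0.0642).

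After quantile normalization the other 6 factors had intervals that spanned 0. The related chaperonin gene Cpn60beta3 had a log2 difference of -0.19 (95% interval -0.63 to 0.25). Among photosystem II factors, PSB27, which acts in assembly and repair, had -0.17 (-1.14 to 0.79). With a block for each sample number the PSB27 interval was narrower, at -0.46 to 0.11, and still spanned 0. LPA19, which acts in maturation of the D1 protein, had 0.03 (-0.29 to 0.36), and AT1G54500 had 0.05 (-0.17 to 0.27). PSAN, a lumenal subunit of photosystem I, had 0.01 (-0.27 to 0.28), and PAC, a factor for plastid RNA, had -0.12 (-0.49 to 0.25). The sign depended on the scaling for PAC (0.07 as deposited), PSAN (-0.13 with median-centred arrays) and AT1G54500 (-0.0087 with median-centred arrays). LPA19 was at 0.26 as deposited (95% interval 0.04 to 0.47, limma adjusted p = 0.0702). AT1G49380, the other listed cytochrome factor with a probe, was listed at 0 in 12 of 12 samples and was not tested.

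**Figure D5:**
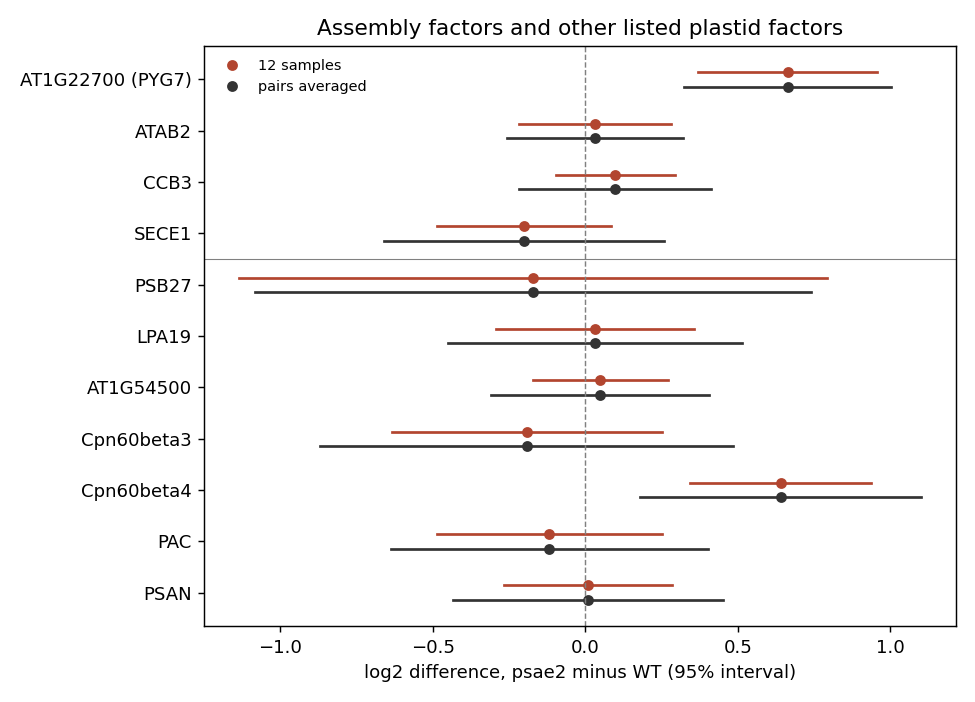
Log2 difference, psae2 minus WT, with its 95% interval (horizontal axis) for the 4 assembly factors (above the line) and 7 other listed plastid factors (below it), over 12 samples (red) and with pairs of numbers averaged (black). The intervals are not adjusted for the number of entries tested. Those of AT1G22700 and Cpn60beta4 lie above 0 in both, and those of the other 9 span 0. With pairs averaged neither AT1G22700 nor Cpn60beta4 passed (limma adjusted p = 0.0743 and 0.163).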

How the data were processed

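The deposited table gives the authors' intensity values on a linear scale for 3439 probes; the sources used here do not give its background correction, scaling or array chemistry. Values below a floor, the 5th percentile of an array's values above 0 (0.0638 to 0.105) were raised to it, log2-transformed and quantile-normalized. The 429 entries under that floor on all 12 arrays were left out, and 3009 entries were tested with limma 3.58.1 (lmFit, eBayes) in R 4.3.3, two-sided, with Benjamini-Hochberg adjustment over all of them at 0.05. Probes were named from the platform annotation (692 list 1 gene, 870 several, 1877 none; probes of no listed gene are unnamed here), and 690 matched the reference table of assembly TAIR10.1.

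The psae2 and WT samples were grouped and numbered from their titles. Same numbers of the 2 genotypes correlated at 0.34 to 0.53 in their deviations from the group mean, and 12 of 12 samples correlated best with their own number, so the numbers pair the samples; this comes from the data, not from the labels. Numbers 1 and 2, 3 and 4, and 5 and 6 were averaged as possible repeats. The fit was tested on simulated data, with error either shared within pairs of numbers of a genotype or not shared. The correlation of same numbers across genotypes was not simulated, and no outcome of that test is given here. The interaction test was added after the data were seen. Genes named were the 4 members, listed plastid factors and the 3 nearest profiles of each member. Members, lists and tests were chosen with earlier results of these data known. Figures were drawn with matplotlib 3.10.9. The number of arrays limits the precision.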

Additional observations from a re-analysis of the deposited data

Results flagged for a closer look

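The SECE1 log2 difference, psae2 minus WT, was -0.56, -0.16 and 0.13 at numbers 1 and 2, 3 and 4, and 5 and 6. In limma the interaction with the pair of numbers passed (adjusted p = 0.0131, and 0.00914 to 0.0153 under the 4 other treatments of the values). SECE1 was set apart here because the interaction passed, as it did for 21.6% of all entries. Its difference over all numbers did not pass (-0.20, limma adjusted p = 0.306). The interaction test takes samples of a pair as independent, and if they are repeats the interaction cannot be tested. In 0 of 8 sets of 6 samples, the 4 genes in each genotype, did 1 sample stand apart from the others by Dixon's ratio. That ratio takes the 6 samples as independent, so it cannot single out possible repeats that deviate together.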

How the results depend on the processing

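The AT1G22700 difference (0.66) was above 0 in all 18 alternatives beyond single samples left out, at 0.49 to 0.80. Its call was lost with pairs averaged (0.66, limma adjusted p = 0.0743), the same with a replicate block (0.66, 0.0904), the pair as a random block (0.66, 0.169), numbers 3 and 4 left out (0.71, 0.0648), and as deposited with pairs averaged or the random block (0.80, 0.101 and 0.177), the last pair of settings chosen after seeing the data. With 1 sample left out it was 0.55 to 0.74 and the call was kept in 12 of 12. CCB3 passed as deposited (0.31, 0.00945) and SECE1 without numbers 5 and 6 (-0.36, 0.0334), whereas SECE1 was -0.022 without numbers 1 and 2 (0.921) and -0.045 as deposited (0.803). ATAB2 was -0.0016 without numbers 5 and 6. With 1 sample left out ATAB2 was -0.038 to 0.0823, CCB3 0.0565 to 0.15 and SECE1 -0.29 to -0.13. The replicate block over 12 samples changed no call of the 4 genes.

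The 671 entries that passed became 1010 under the replicate block, 79 with averaged pairs, 44 when these had a replicate block too, 181 with the random block, 284 without numbers 3 and 4, 306 at an adjusted p under 0.01, 231 with at least 1.5-fold, and 29 and 187 as deposited with pairs averaged and with the random block. Leaving out 1 sample gave 552 to 668, leaving out numbers 1 and 2 gave 669, and leaving out numbers 5 and 6 gave 516. Of the 4 genes, 1 passed; 2 did as deposited or without numbers 5 and 6, and 0 with pairs averaged (block or not, or as deposited), the random block (also as deposited) or without numbers 3 and 4. Of the 11 listed factors tested, 2 passed; 3 did as deposited, 0 with pairs averaged (block or not, or as deposited) or without numbers 3 and 4, and 1 with the random block (also as deposited). The cause was not tested, except that stricter thresholds lower counts by construction. Of the calls, 53.4% were higher in psae2, against 84.0% as deposited and 40.9% with median-centred arrays. ATAB2 lay nearest its floor, at 1.91 to 3.39 times, and no limit from its signal was tested.

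Among the other listed factors, whose main differences were small and not called, PAC was 0.067 as deposited in each of the 3 fits run, AT1G54500 -0.0087 and PSAN -0.13 with median-centred arrays, and PSAN -0.046 centred on the 75th percentile. Without numbers 5 and 6 LPA19 was -0.0048, Cpn60beta3 0.046 and PAC 0.086. With 1 sample left out PSB27 was -0.42 to 0.022, LPA19 -0.062 to 0.11, AT1G54500 -0.0064 to 0.093, PAC -0.20 to 0.020 and PSAN -0.053 to 0.073. The cause was not tested.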
